A study of Mus musculus with 9 samples.

Results

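Dusp6, Spry1, Spry2, Spry4, Spred1, Spred2, Il17rd, Etv1, Etv4 and Etv5 are transcriptional targets of FGF receptor signaling, and most of them act back on it. They were chosen by symbol for these known roles, although earlier results of these data were known when the choice was made. They are 10 of the 43539 genes in the table used. All 10 were among the 18714 genes tested, which had a mean of at least 0.5 FPKM, a read count scaled to transcript length and library size.

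An FGF bound to its receptor recruits adaptors, which load RAS with GTP and start the RAF, MEK and ERK kinase cascade. Active ERK phosphorylates ETS transcription factors, and cells respond by transcribing both the Etv factors that carry the program and the inhibitors that dampen it. DUSP6 removes phosphate from ERK, Sprouty and SPRED proteins act at the level of RAS and RAF, and IL17RD, also called SEF, acts at the receptor and on ERK. The RNA of these genes is widely used as a readout of FGF activity in embryos, and balanced FGF signaling is needed for the flat bones of the skull.

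RNAseq was carried out on tissue from mouse embryos at E14.5, when ossification of the skull begins. MCAGF8 embryos carried Msx2-Cre, which recombined the CAGF8 allele so that Fgf8b was expressed in the surface ectoderm, and the study asked how this ligand alters the mesenchyme beneath. The controls are labelled wildtype on a mixed strain. They came from the same cross, in which CAGF8 was carried by all offspring, and lacked Cre, so the CAGF8 allele was present in every group and was unrecombined in the controls. Cranial vault tissue was taken from both genotypes, and control embryos also gave the cartilage of the cranial base, a baseline for hyaline cartilage. Skin was peeled from the vaults and brain was removed before the base was collected. Each of the 3 groups had 9 samples, which were mixed by 3 into 3 pools, and each pool gave 1 library. Errors given as ± are SDs over 3 pools and carry no information on single embryos. In bulk tissue, fewer cells of a type and less RNA per cell cannot be told apart.

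Marker levels of other cell types differed between the libraries. Markers of cartilage summed to between 2077 and 3015 FPKM in the control vault and between 2858 and 5262 FPKM in the MCAGF8 vault. In the control base they summed to 1014, 10390 and 1525 FPKM in replicates 1, 2 and 3, so replicate 2 stood apart and the other base libraries lay below every vault library in cartilage markers. Markers of skin epidermis summed to between 39.7 and 129 FPKM in the control vault, between 453 and 1122 in the MCAGF8 vault and between 139 and 824 in the control base, and no epidermal marker was at 0 in all libraries of a group. Markers of skeletal muscle summed to between 1166 and 7155 FPKM in the control vault against 61.6 to 316 in the MCAGF8 vault, and those of osteoblasts to between 4043 and 7291 against 2245 to 2959. In the control base, muscle markers summed to between 2158 and 13010 FPKM and osteoblast markers to between 998 and 2413. In the vault comparison 8 of 14 muscle markers and 6 of 11 osteoblast markers were called lower, by the thresholds given below. Of all tested genes 0.604% were called in either direction. Fgf8 itself was at 13.5, 8.25 and 3.00 FPKM in the control vault, 19.5, 9.43 and 13.0 FPKM in the MCAGF8 vault and 3.78, 17.4 and 5.82 FPKM in the control base. The groups overlapped for Fgf8, epidermal markers remained in these libraries although skin had been peeled off, and the allele was not told apart from the endogenous gene.

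Between the vaults, 3 of the 10 genes were higher in the MCAGF8 vault with no overlap, as were 9.90% of all genes tested. Etv4, Dusp6 and Spry4 were higher in each MCAGF8 library than in any control vault library, by ratios of mean FPKM of 2.14, 1.74 and 1.47. The other 7 genes overlapped between the vaults. None of the 10 was called, a call being an unadjusted p under 0.05 together with a Benjamini-Hochberg adjusted p under 0.1 in limma over all tested genes. Of all genes tested, 0.604% met both thresholds. The unadjusted threshold alone was met by 3 of the 10 genes against 6.34% of all genes, and a linear model without limma's moderation called 0 of the 10 and 0 of all genes. The study singled out Dusp6 and Spry4 in these same libraries, so their direction here is not independent evidence.

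**Figure D1:**
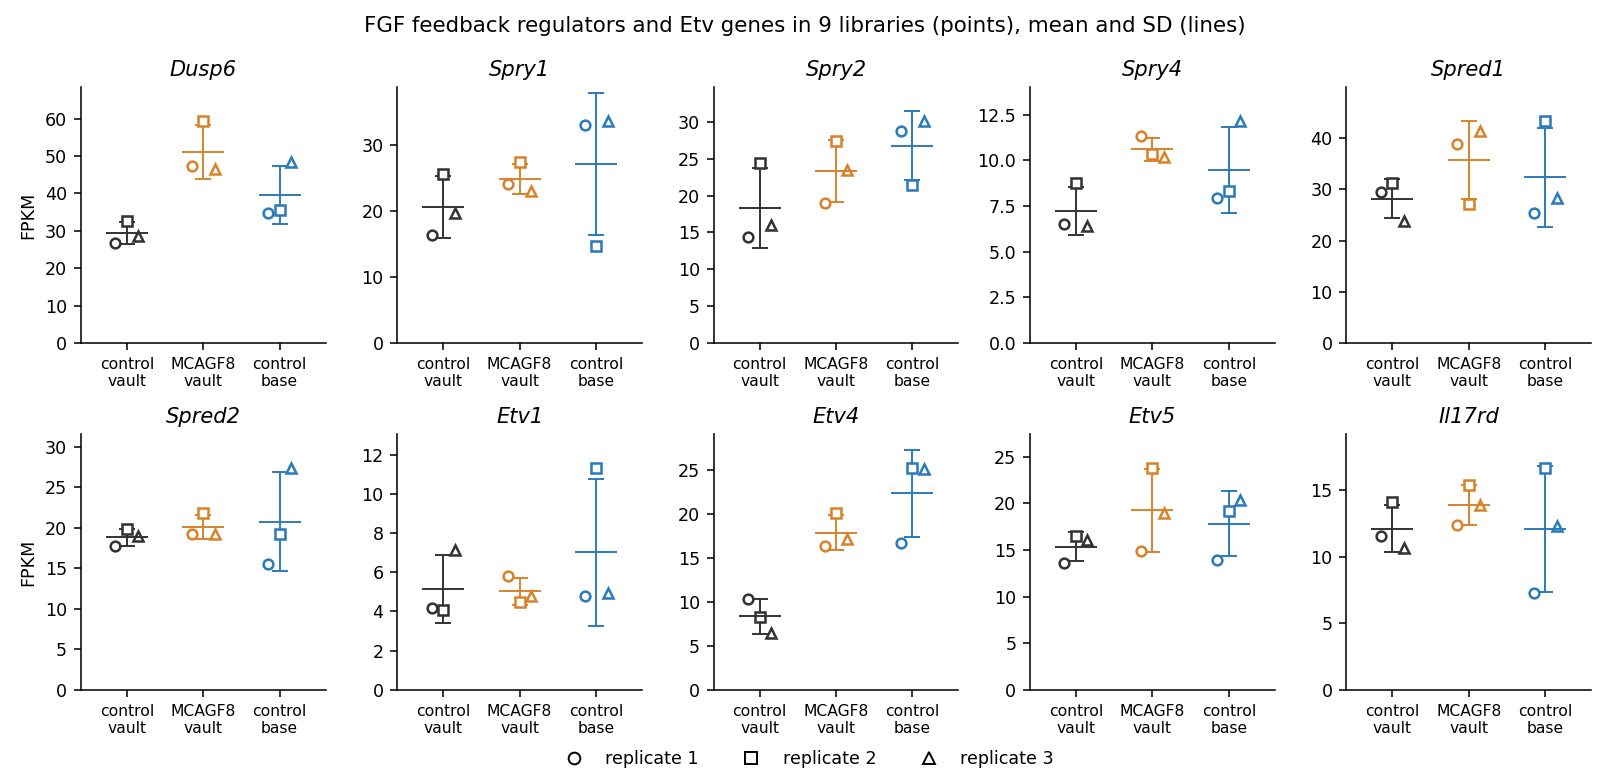
FPKM of each of the 10 genes (y axes from 0, 1 panel per gene) in the control vault, MCAGF8 vault and control base (x axes), with 1 symbol per library and lines for the mean and SD of 3 libraries. Dusp6, Spry4 and Etv4 are the 3 genes with no overlap between the 2 vault groups, and the control base libraries are widely spread for Spry1, Spred1, Etv1 and Il17rd.

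Dusp6 encodes the cytoplasmic phosphatase that inactivates ERK, and it lies at chr10:99263231-99267489 on the plus strand of GRCm38 (ENSMUSG00000019960). The 250 bases before its start are shown because ETS factors, which include Etv4, bind DNA around the letters GGAA. Capitals mark every GGAA in either direction, so that TTCC is a match on the other strand, and the sequence is from RefSeq (GRCm38.p6, chr10:99262981-99263230, plus strand).
Dusp6: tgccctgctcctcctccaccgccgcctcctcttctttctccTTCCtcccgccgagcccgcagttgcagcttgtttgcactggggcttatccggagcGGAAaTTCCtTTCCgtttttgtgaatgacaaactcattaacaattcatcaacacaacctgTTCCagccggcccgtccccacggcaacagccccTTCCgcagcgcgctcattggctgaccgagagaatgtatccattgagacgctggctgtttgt
It held 6 matches, and 8.69% of the 32851 RefSeq windows of this length held at least as many. A match is a description of letters and not a binding site.

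Dusp6 was at 26.9, 32.6 and 28.7 FPKM in the 3 control vault libraries, at 47.2, 59.5 and 46.5 FPKM in the MCAGF8 vault, and at 34.7, 35.7 and 48.4 FPKM in the control base. Every MCAGF8 vault library was thus above every control vault library, and the base libraries lay above the control vault and reached into the MCAGF8 range. Between the vaults the means were 51.1 ± 7.30 and 29.4 ± 2.91 FPKM, a log2 difference of 0.77 (SE 0.19, 95% interval 0.35 to 1.20), with an adjusted p of 0.205 in limma. Against the base the log2 difference was 0.37 (interval -0.06 to 0.79, adjusted p = 0.323). The vault difference lay between 0.66 and 0.94 in 24 alternatives, with an adjusted p between 0.0322 and 0.614.

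Dusp6 was the only one of the 10 genes whose vault call changed with the normalization. It was called after quantile normalization, with an adjusted p of 0.0875 in limma. The number of all genes called after quantile normalization is not given here. It was also called once each library's trend with exon length and GC content had been removed by loess, with a log2 difference of 0.86 and an adjusted p of 0.0322 against the control vault, and of 0.53 and 0.0339 against the base. On that scale the MCAGF8 libraries lay at log2 values of 5.72, 5.92 and 5.69, the base libraries at 5.07, 5.30 and 5.36, and the control vault libraries at 4.86, 5.05 and 4.85. The 3 groups then no longer overlapped for Dusp6. Of 18568 genes on that scale, 173 were called between the vaults and 2949 between the MCAGF8 vault and the base. The share of all genes without overlap on that scale was not counted.

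The Sprouty proteins are inducible inhibitors that act between the receptor and RAF. Spry4 was at 6.52, 8.75 and 6.43 FPKM in the control vault, 11.3, 10.3 and 10.2 FPKM in the MCAGF8 vault, and 7.91, 8.34 and 12.2 FPKM in the control base. The MCAGF8 libraries were close to each other and above all control vault libraries, while the base libraries lay above control vault replicates 1 and 3 and reached past the MCAGF8 range. Between the vaults the log2 difference of Spry4 was 0.51 (SE 0.22, interval 0.01 to 1.00), with an unadjusted limma p of 0.0469 and an adjusted p of 0.776.

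Spry1 and Spry2 had higher levels than Spry4 on the FPKM scale, which is per length, and differed less between the vaults. Spry1 (chr3:37639947-37644598, plus strand) was at 16.4, 25.6 and 19.8 FPKM in the control vault, 24.1, 27.5 and 23.1 FPKM in the MCAGF8 vault, and 33.1, 14.7 and 33.7 FPKM in the base. Spry2 (chr14:105891947-105896819, minus strand) was at 14.4, 24.5 and 16.0 FPKM in the control vault, 19.1, 27.5 and 23.5 FPKM in the MCAGF8 vault, and 28.8, 21.4 and 30.2 FPKM in the base. For both genes control vault replicate 2 reached into the MCAGF8 range, and base replicate 2 was the lowest base library. The log2 differences between the vaults were 0.28 (interval -0.41 to 0.98) for Spry1 and 0.36 (interval -0.19 to 0.91) for Spry2, and the intervals leave room for no difference as well as for one as large as that of Dusp6. The difference of Spry2 depended on single pools, with 0.58 without control vault replicate 2 and 0.21 without control vault replicate 1. Summed over the 3 Sprouty genes, the means were 46.1 ± 11.3 FPKM in the control vault, 58.8 ± 5.68 in the MCAGF8 vault and 63.4 ± 16.7 in the base. Spry1 overlaps the annotated gene Gm42922 on the opposite strand, and Spry4 overlaps Gm27369 and Gm27804, both listed at 0 in every library. The strand setting of the counting is not stated.

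SPRED proteins are membrane-bound relatives of Sprouty that bring neurofibromin to RAS. Spred1 (chr2:117121374-117182279, plus strand) was at 29.4, 31.3 and 23.9 FPKM in the control vault, 38.8, 27.1 and 41.4 FPKM in the MCAGF8 vault, and 25.4, 43.5 and 28.4 FPKM in the base. Spred2 (chr11:19924375-20024026, plus strand) was at 17.7, 19.8 and 18.9 FPKM in the control vault, 19.3, 21.9 and 19.2 FPKM in the MCAGF8 vault, and 15.6, 19.3 and 27.4 FPKM in the base. Both overlapped between the vaults. Spred2 varied little within them, at 18.8 ± 1.05 FPKM in the control vault and 20.1 ± 1.53 FPKM in the MCAGF8 vault (SD, n = 3), and its log2 difference of 0.09 had an interval of -0.39 to 0.57. That of Spred1 was 0.32 (interval -0.23 to 0.87).

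In the 250 bases before the RefSeq start, Spred2 had 7 GGAA matches, a number reached by 3.82% of all windows. The GENCODE start given above lies inside this window, and 4 of the 7 matches lie before it, in 183 bases. For Dusp6 the count was 6 in 250 bases, so these 2 counts are over unlike lengths. The stretch up to the GENCODE start is shown for comparison with Dusp6, with the same capitals, from RefSeq (GRCm38.p6, chr11:19924192-19924374, plus strand).
Spred2: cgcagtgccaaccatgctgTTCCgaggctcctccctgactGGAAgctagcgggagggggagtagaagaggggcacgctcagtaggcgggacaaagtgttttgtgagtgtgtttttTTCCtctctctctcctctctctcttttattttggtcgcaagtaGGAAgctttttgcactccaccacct
A window was found for 8 of the 10 genes. GGAA was present in 93.4% of all windows, with a median of 3 matches, while the genes had 4 matches in Spred1 and in Il17rd, 3 in Spry2, 1 in Spry1, 2 and 1 in the windows of Etv1, and 0 and 4 in those of Etv5. The longer form CGGAAG, which contains GGAA and was found in 13.6% of windows, was present in the windows of Dusp6, Spred1 and Spred2. For Spred2 it was not in the stretch shown and lay after the GENCODE start. Neither the AP-1 letters TGANTCA nor the CRE letters TGACGTCA, nor the CArG box of serum response factor, all searched on both strands, were in any of these windows. They were found in 6.75%, 1.55% and 1.47% of all windows.

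Il17rd encodes the transmembrane inhibitor SEF. It lies at chr14:27038941-27107286 on the plus strand and was at 11.6, 14.1 and 10.7 FPKM in the control vault, 12.4, 15.4 and 13.9 FPKM in the MCAGF8 vault, and 7.29, 16.7 and 12.3 FPKM in the base. The vaults overlapped, with a log2 difference of 0.19 (interval -0.43 to 0.81), and the base libraries spanned all 6 vault libraries.

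Etv1, Etv4 and Etv5 form the PEA3 subfamily of ETS activators, which transmit FGF signals to target genes. Etv4 (ENSMUSG00000017724, chr11:101769742-101785371, minus strand of GRCm38) was at 10.4, 8.33 and 6.43 FPKM in the control vault, 16.4, 20.2 and 17.2 FPKM in the MCAGF8 vault, and 16.7, 25.3 and 25.1 FPKM in the base. The lowest MCAGF8 library was well above the highest control vault library, while MCAGF8 vault replicate 1 lay just below the range of the base and replicates 2 and 3 within it. The means were 8.38 ± 1.97, 17.9 ± 2.00 and 22.4 ± 4.92 FPKM. Between the vaults the log2 difference was 1.03 (SE 0.23, interval 0.50 to 1.55), the largest of the 10 genes, with an adjusted p of 0.163 in limma. It lay between 0.87 and 1.19 in 24 alternatives, none of which gave a call by the adjusted p, which was between 0.115 and 0.726.

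Etv5 (chr16:22381309-22439719, minus strand) was at 13.5, 16.4 and 16.0 FPKM in the control vault, 14.9, 23.8 and 19.0 FPKM in the MCAGF8 vault, and 13.9, 19.2 and 20.4 FPKM in the base. Etv1 (chr12:38779380-38870484, plus strand) was at 4.19, 4.10 and 7.15 FPKM in the control vault, 5.78, 4.47 and 4.80 FPKM in the MCAGF8 vault, and 4.78, 11.3 and 4.94 FPKM in the base. Both overlapped between all groups. The log2 difference between the vaults was 0.29 (interval -0.22 to 0.80) for Etv5, and for Etv1, with means of 5.15 and 5.02 FPKM, the interval was -0.74 to 0.74. As a share of the summed FPKM of the 3 Etv genes, Etv4 made up 36.9%, 28.9% and 21.7% in the control vault, 44.2%, 41.6% and 41.9% in the MCAGF8 vault, and 47.2%, 45.3% and 49.8% in the base. Etv4 was thus the second of the 3 genes by mean level in the control vault and in the MCAGF8 vault, after Etv5, and the first in the base. In the MCAGF8 vault the mean levels of Etv4 and Etv5, 17.9 and 19.2 FPKM, lay within the spread of Etv5.

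Across the 10 genes the vault difference had a median of 0.31 on the log2 scale, against -0.01 over all tested genes. The median was between 0.31 and 0.47 under 4 other scalings. The highest of these came from rescaling each library to the same sum, which also moved the median of all genes to 0.13. The mean log2 value was higher in the MCAGF8 vault for 9 of the 10 genes, as for 48.5% of all genes. The sign of Etv1, the exception, was turned by rescaling to the same sum. The summed FPKM of the 10 genes was 151, 185 and 154 in the control vault and 209, 238 and 219 in the MCAGF8 vault. Replicate 2 had the highest value for 8 of the 10 genes in the control vault and for 7 in the MCAGF8 vault.

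**Figure D2:**
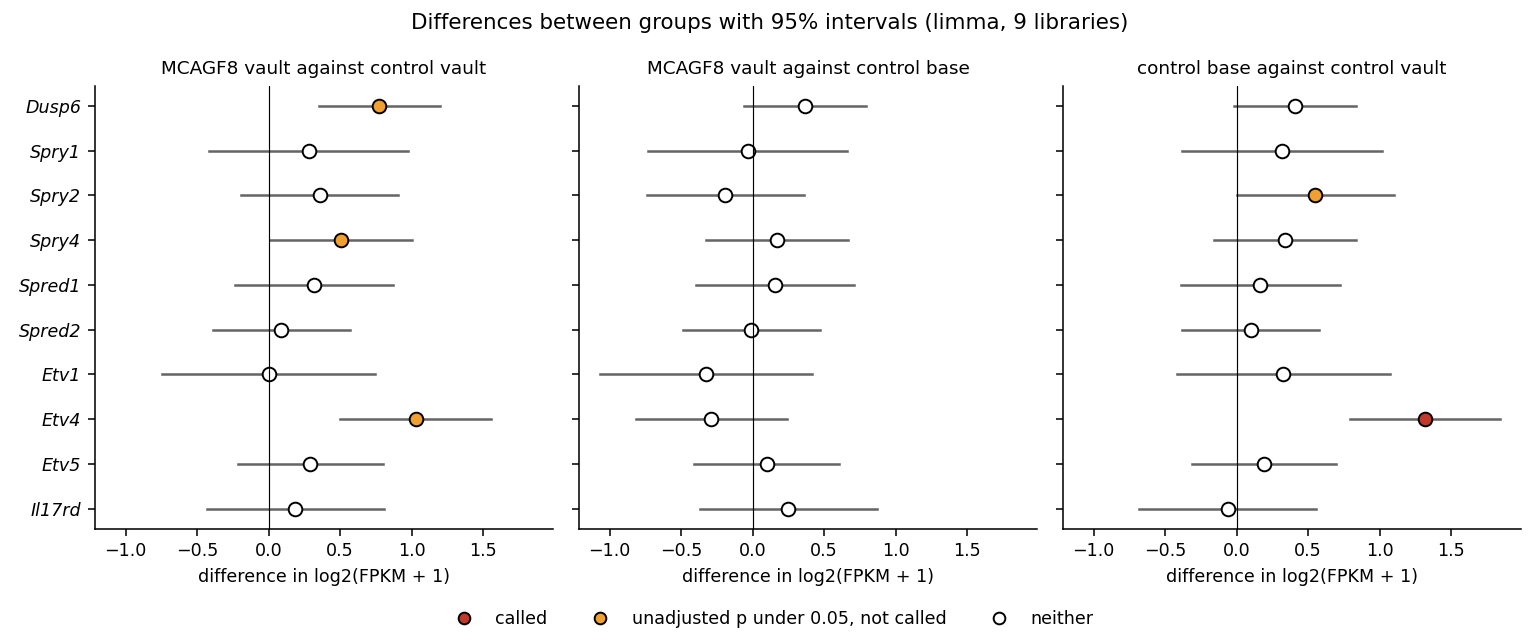
Difference in log2(FPKM + 1) between groups (x axes) for the 10 genes (y axis), with 95% intervals from limma over 9 libraries. Only Etv4 is called, in the control base against the control vault (right), and the intervals of Dusp6, Spry4 and Etv4 lie above 0 in the vault comparison (left).

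In the control base, Etv4 was the one of the 10 genes that differed most from the control vault. Its log2 difference was 1.32 (SE 0.23, interval 0.79 to 1.84), a ratio of mean FPKM of 2.67 with no overlap, and an adjusted p of 0.0303 in limma, so it was called. It was 1 of the 10 genes called, and 3.06% of all tested genes were called in this comparison. At an unadjusted p under 0.05 were 2 of the 10 genes (Etv4 and Spry2) and 12.8% of all genes. The difference was 1.22 (adjusted p = 0.0397) without base replicate 2, the library with the highest cartilage markers. The call was lost without control vault replicate 2 (difference 1.32, adjusted p = 0.111) or replicate 3 (1.16, adjusted p = 0.147). It was also lost after rescaling to the same sum (adjusted p = 0.130), with both groups alone in the fit (0.140), without the log (0.137) and with the replicate number as a block (0.104), and the adjusted p ranged from 0.0185 to 0.147 over 24 alternatives.

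Dusp6 and Etv4 were the 2 genes higher in the base than in the control vault without overlap, as were 8.86% of all genes. Dusp6 was higher by 0.41 on the log2 scale (interval -0.02 to 0.83, adjusted p = 0.419), and Spry2 was higher by 0.55 (interval 0.00 to 1.10, adjusted p = 0.389) with overlap. Without base replicate 3 the difference of Dusp6 was 0.26. The median over the 10 genes was 0.32, against 0.07 over all genes, and 9 of the 10 were higher in the base, as were 58.8% of all genes. The exception, Il17rd, turned in sign when single libraries were left out, as did Spred1, Spred2 and Etv1.

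Between the MCAGF8 vault and the control base none of the 10 genes was called by limma. In that comparison 8.39% of all tested genes were called and 19.6% had an unadjusted p under 0.05, while 0 of the 10 genes passed either threshold and 0 were free of overlap, against 21.9% of all genes. The linear model without moderation called 869 genes, none of them among the 10. The log2 differences ran from -0.33 for Etv1 to 0.37 for Dusp6, with a median of 0.05 against -0.07 over all genes. They were above 0 for 5 genes and below 0 for 5, against 43.6% of all genes above 0, but rescaling to the same sum turned the sign of Spry1, Spry2 and Spred2 and moved the median of all genes to 0.11. The intervals were wide, at -0.81 to 0.24 for Etv4 and -0.33 to 0.67 for Spry4, and do not show that the groups had the same levels. The MCAGF8 vault and the control base were both compared with the same control vault libraries.

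Within the base, the 3 genes with the longest exons and Etv4 were highest in replicate 2, and Spry1 and Spry2 were lowest there. Base replicate 2 exceeded base replicate 1 by 1.09 on the log2 scale for Etv1, by 1.10 for Il17rd and by 0.75 for Spred1, whose exons cover 13296, 10985 and 6784 bases. The same difference was -1.12 for Spry1 and -0.41 for Spry2, whose exons cover 2906 and 2087 bases. Over all genes, log2 values relative to the mean of all libraries changed by -0.213 per doubling of exon length in base replicate 1 and by 0.096 in base replicate 2, and by -0.063 to 0.089 in the other libraries. With the trend with length and GC content removed, the differences were 0.38 for Etv1, 0.44 for Il17rd, 0.39 for Spred1, 0.01 for Spry2 and -0.94 for Spry1. The gap thus narrowed for the 3 long genes, closed for Spry2 and remained for Spry1. It widened for 2 genes with shorter exons, from 0.57 to 0.70 for Etv4 and from 0.04 to 0.23 for Dusp6.

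**Figure D3:**
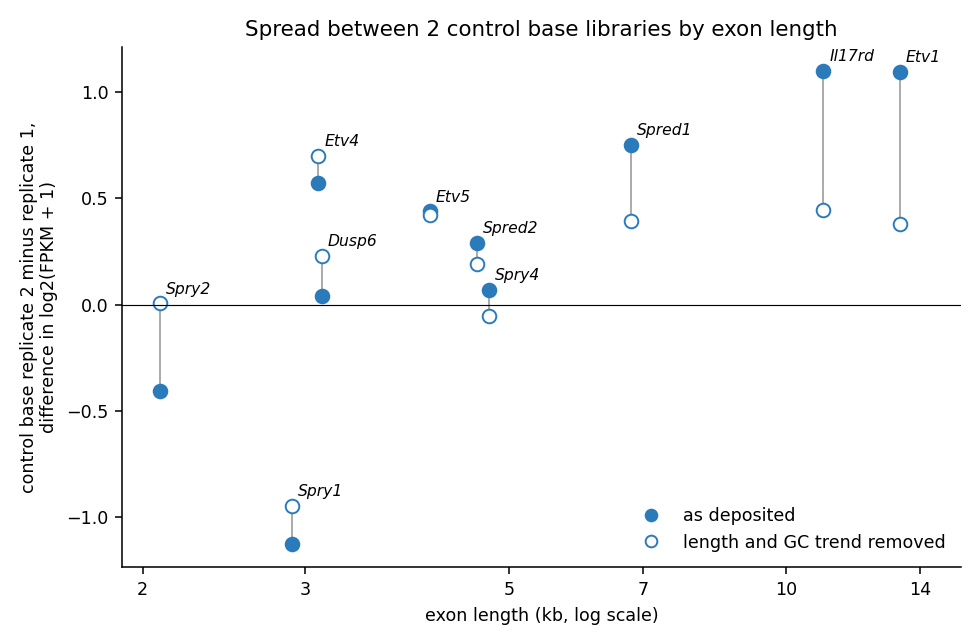
Control base replicate 2 minus replicate 1 in log2(FPKM + 1) (y axis) against exon length in kb (x axis, log scale) for the 10 genes, as deposited (filled) and with the trend with length and GC content removed (open). As deposited, the difference is highest for Etv1 and Il17rd, the genes with the longest exons, and lowest for Spry1.

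The summed markers of skin epidermis, like Etv4, Dusp6 and Spry4, were higher in every MCAGF8 vault library than in any control vault library. Of these 15 markers 14 were higher in the MCAGF8 vault, against 48.5% of all genes. Called were 2 of them (Krt5 and Pkp1), against 0.604% of all genes. Dsg3 alone was under 1 FPKM in all control vault libraries. The epidermal sums were 488, 453 and 1122 FPKM in MCAGF8 vault replicates 1, 2 and 3 and 616, 139 and 824 FPKM in base replicates 1, 2 and 3. Within the base, replicate 3 had the highest sum and the highest Dusp6 and Spry4, 48.4 and 12.2 FPKM, while Etv4 was at 25.3 and 25.1 FPKM in replicates 2 and 3, which had the lowest and the highest sum. Within the MCAGF8 vault, replicate 3 had the highest sum and the lowest Dusp6 and Spry4. The part of epidermal, muscle, osteoblast, cartilage or endothelial RNA in the vault differences was not tested. In the base, markers of brain neurons and progenitors summed to between 196 and 596 FPKM against 35.0 to 89.6 in the control vault. Of the 14 muscle markers 13 were called lower in the MCAGF8 vault than in the base, against 8.39% of all genes called. The part of brain or muscle RNA in the differences with the base, that of Etv4 included, was not tested. Of the markers of endothelium, erythroid cells, macrophages, meninges and proliferation, 0 were called between the vaults. In that order, 2, 0, 0, 0 and 1 had an unadjusted p under 0.05 in limma. Of the 10 endothelium markers 9 were higher in the MCAGF8 vault and 1 lower, and 3 were higher without overlap. Their median log2 difference was 0.32, close to the 0.31 of the 10 FGF target genes. Of the 12 cartilage markers 11 were higher in the MCAGF8 vault and 1 lower, with a median log2 difference of 0.76. Higher without overlap were 4 of the 12, against 9.90% of all genes. None of the 12 was called and 1 had an unadjusted p under 0.05 in limma. Of 8 brain markers 1 was called lower, Dcx.

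**Figure D4:**
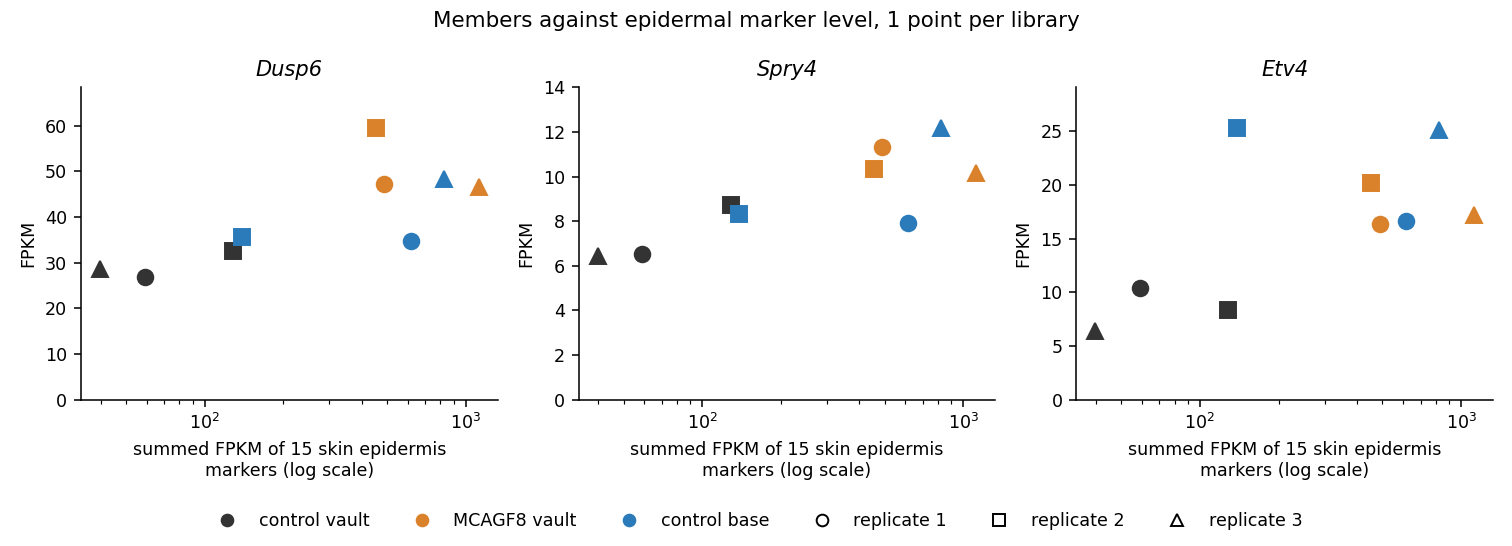
FPKM of Dusp6, Spry4 and Etv4 (y axes) against the summed FPKM of 15 markers of skin epidermis (x axes, log scale), with 1 point per library. Control vault libraries lie at the left in all panels and below every MCAGF8 vault library, and the control base libraries (blue) have epidermal sums between 139 and 824 FPKM.

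The other genes of the pathway were compared between the vaults in 8 lists. No gene of these lists was called, by limma or by the model without moderation. Of all tested genes 0.604% were called by limma and 6.34% had an unadjusted p under 0.05. Of 11 FGF ligands tested, 5 had a difference above 0 and 6 below, and the median was -0.25, while 3 had an unadjusted p under 0.05, all lower without overlap. These were Fgf6 (-1.09), made by developing muscle, Fgf9 (-1.06) and Fgf5 (-0.88). Their levels were low, with means in the MCAGF8 vault and the control vault of 0.016 and 1.43 FPKM for Fgf6. The means were 1.41 and 4.06 FPKM for Fgf9, and 0.025 and 0.914 FPKM for Fgf5. The muscle markers above were lower in the same libraries, and their part in the difference of Fgf6 was not tested. Fgf8 had the highest difference, 0.83 (adjusted p = 0.969). Of the 5 receptors tested 0 passed an unadjusted p under 0.05, with values from -0.47 for Fgfr4 to 0.55 for Fgfr3 and a median of 0.26.

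Downstream of the receptor, the 10 adaptors and exchange factors had a median of 0.13, and 1 had an unadjusted p under 0.05. This gene, Gab1, a docking protein that links receptors to SHP2, was at 37.0 ± 4.45 FPKM in the MCAGF8 vault and 24.1 ± 0.809 in the control vault, a log2 difference of 0.60 without overlap (adjusted p = 0.556). The 11 RAS, RAF, MEK and ERK genes stayed within -0.26 to 0.21, with a median of -0.05 and 0 at an unadjusted p under 0.05. In the list named other negative regulators of RAS and ERK, 10 of 20 genes were higher and 10 lower, with a median of -0.03. The list was not confined to such regulators, and 1 of its genes had an unadjusted p under 0.05. That gene was Dusp10, a phosphatase of the stress kinases JNK and p38, with a log2 difference of 0.66, and the lowest was Dusp8 with -0.60. The 15 other regulators and genes expressed together with FGFs had a median of 0.18, from -1.61 for Shisa3 to 0.76 for Htra1, the 2 genes with an unadjusted p under 0.05. HTRA1 is a secreted protease, and the study also reported its RNA as upregulated in these libraries. Here it was at 360 ± 97.1 FPKM in the MCAGF8 vault and 208 ± 16.4 in the control vault, without overlap (adjusted p = 0.357).

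Of the 20 early response and target genes of ERK, 16 had a difference below 0 and 4 above, the median was -0.12, and 3 had an unadjusted p under 0.05, all lower. Plaur, the urokinase receptor, was at 2.72 ± 0.905 FPKM against 7.08 ± 0.751 in the control vault, a log2 difference of -1.14 (adjusted p = 0.238). The highest was Phlda1 with 0.32, and Fos and Egr1, the classic immediate early genes, overlapped at -0.11 and -0.15. Of 18 other ETS factors, 12 were higher and 6 lower, with a median of 0.23. Without overlap 7 of the 18 were higher and 0 lower, while 9.90% of all genes were higher without overlap. An unadjusted p under 0.05 in limma was reached by 2 of them, Ets2 and Erg. Erg was at 69.3 ± 1.80 FPKM in the MCAGF8 vault and 49.6 ± 1.77 in the control vault (adjusted p = 0.719). Ets2, itself a substrate of ERK, was at 109 ± 18.4 FPKM against 64.4 ± 6.17, a log2 difference of 0.74 without overlap (adjusted p = 0.384), and the lowest was Elf5 with -1.26.

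**Figure D5:**
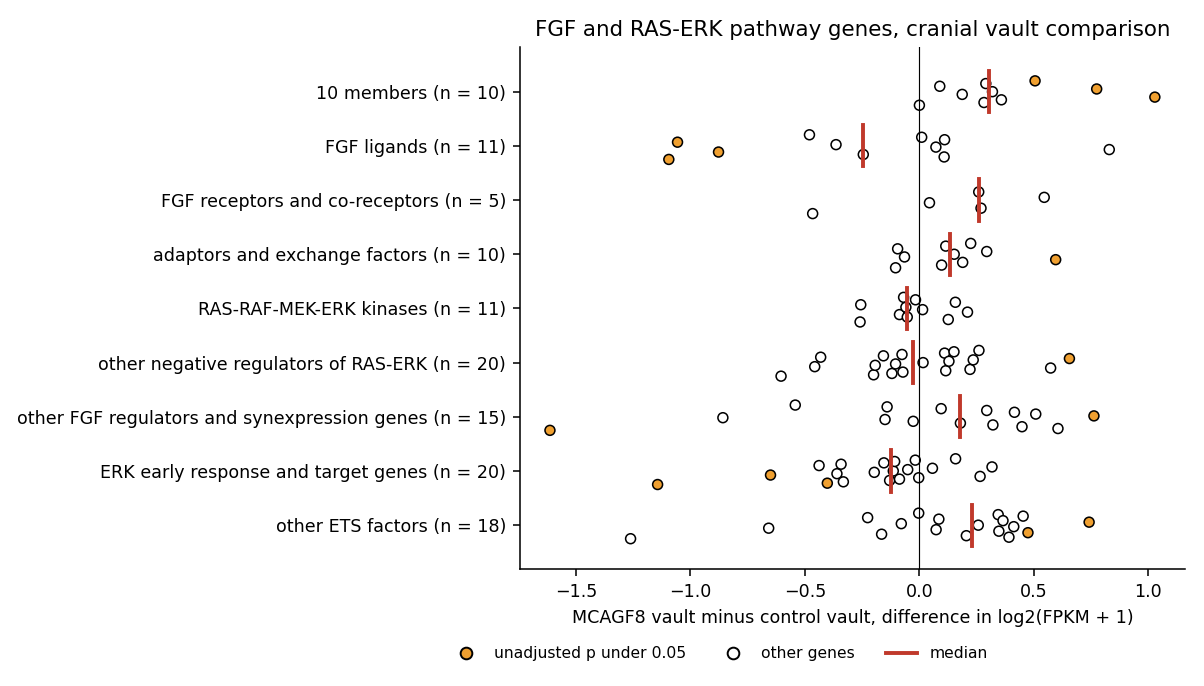
Difference in log2(FPKM + 1) between the MCAGF8 vault and the control vault (x axis) for the genes tested in each list of the FGF and RAS-ERK pathway (y axis), 1 point per gene, with the median of each list as a line. The 10 genes have a median of 0.31, while the kinases of the cascade lie between -0.26 and 0.21 and the early response genes have a median of -0.12.

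The same lists held called genes in the comparisons with the base. Against the base, the MCAGF8 vault was lower in the ligands Fgf5, Fgf6, Fgf7 and Fgf9 and in Dusp8, Shisa3 and Ehf. It was higher in Htra1, in Sulf2, an enzyme that trims heparan sulfate, in Flrt3, in Klf4 and in the ETS factors Ets2, Elf4 and Erg. Fgf7, a ligand of mesenchyme for epithelial receptors, was at 4.27 ± 1.93 FPKM in the MCAGF8 vault and 10.5 ± 2.43 in the base, a log2 difference of -1.18 (adjusted p = 0.0546). Htra1 was at 80.8 ± 15.6 FPKM in the base, and the MCAGF8 vault exceeded it by 2.13 on the log2 scale (adjusted p = 0.00251). The base was lower than the control vault in Htra1, Klf4 and Elf4, with log2 differences of -1.36, -1.24 and -0.87.

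Over all 9 libraries, genes were ranked by the distance of their profile from that of Dusp6. Likeness was the root mean square difference between profiles of log2(FPKM + 1) after each had been centred on its mean, over 12933 genes with a mean of at least 5 FPKM. The 5 closest genes were Acsf2 (0.152), an acyl-CoA synthetase, Sox4 (0.153), a transcription factor of progenitor cells, Slco3a1 (0.159), an organic anion transporter, Cacng7 (0.166), an auxiliary subunit of ion channels, and Spry4 (0.167). Sox4 was at a mean of 72.0 FPKM in the control vault, 103 in the MCAGF8 vault and 81.2 in the base. Among the 10 genes, Etv5 ranked 139 in likeness to Dusp6, while Etv4 ranked 5604 and Etv1 ranked 8698. The measure counts the size of a change as well as its direction, so a low rank does not show an unlike direction. Between the vaults Etv4 differed by 1.03 and Dusp6 by 0.77 on the log2 scale, both higher in the MCAGF8 vault. These genes were picked for their likeness, so the values carry no test.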

How the data were processed

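RNA from E14.5 mouse tissue was measured in 9 libraries, 3 per group. Per the labels and methods, the authors used a stranded mRNA kit, single-end sequencing, gSNAP for mapping and Cufflinks for expression. They deposited FPKM, 1 value per Ensembl gene and library. No source used here names the genome build. Depth is unknown, so no counting interval is given, and control embryos gave both vault and base tissue, but which embryos entered which pool is not stated. The fit treated the pools as independent. Each limma p-value sets a difference between groups against the spread between pools. In the main fit that spread was estimated from all 9 libraries and moderated over all tested genes.

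Repeated identifiers were summed (63 rows), and 9 genes with the placeholder 999999999 in 17 cells were left out. A mean of 0.5 FPKM or more was required, which left 18714 genes. Their log2(FPKM + 1) values in all 9 libraries entered 1 limma fit (version 3.58.1, R 4.3.3, two-sided, eBayes with a trend). The fit was checked on simulated data. Symbols, exon lengths and coordinates were from GENCODE M21 and sequences from RefSeq, both of GRCm38. Tables and plots used Python 3.11.15, pandas 2.3.3, numpy 2.4.6 and matplotlib 3.10.9. The 10 genes, the pathway and marker lists and the tests were chosen with earlier results of these data known. The genes named in the text were the 10, the 5 most like Dusp6 and, in each list, those called and the highest and lowest. Fos, Egr1 and the markers Krt5, Pkp1, Dsg3 and Dcx were chosen after their values were seen. Alternatives were other pseudocounts (0.1, 0.01), filters, scalings, thresholds, models and libraries left out.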

Additional observations from a re-analysis of the deposited data

How the results depend on the processing

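The unit of replication was a pool, depth is unknown, and the labels give no batch. Of 720 values of the 10 genes under the alternatives, 674 kept their direction and their side of the threshold, 33 turned in sign, 7 gained a call and 6 lost one. Every value that turned was one of a gene that was not called. The cause of these changes was not tested.

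In the vault comparison, where 0 of the 10 genes and 113 of all genes were called, 1 of the 10 was called after quantile normalization and 1 after removal of the trend with exon length and GC content (Dusp6 in both), and 3 at an unadjusted p under 0.05. All tested genes called numbered 191 with a pseudocount of 0.1, 192 with 0.01, 66 with no filter, 71 with a mean FPKM of at least 5, 173 without the trend, 174 with libraries of both groups only, 0 in the linear model without moderation, 12 without the log, 35 at an adjusted p under 0.05 and 1186 at an unadjusted p under 0.05. With 1 library left out they numbered between 11 and 231. Their number after quantile normalization is not given here. The difference of Etv1 turned to 0.0052 and 0.0059 with the smaller pseudocounts, 0.15 with rescaling to the same sum and 0.018 after quantile normalization, and ranged from -0.12 to 0.22 with 1 library left out.

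Between the MCAGF8 vault and the base, where 0 and 1571 were called, 1 of the 10 was called without the trend (Dusp6). All genes called numbered 834 with a mean FPKM of at least 5, 2949 without the trend, 875 with both groups only, 869 without moderation, 529 without the log, 941 at an adjusted p under 0.05 and 3675 at an unadjusted p under 0.05, and 559 to 4580 with 1 library left out, the highest without base replicate 2. Spry1 turned to 0.18 with the same sum, 0.067 with a common median, 0.040 with quantiles and 0.060 without the trend. Spry2 turned to 0.015 with the same sum and 0.10 without the trend. Spred2 turned to 0.19, 0.093, 0.043 and 0.023 in the same order as Spry1. With 1 library left out, the differences ranged from -0.41 to 0.16 for Spry1, -0.19 to 0.20 for Spred2, -0.061 to 0.26 for Etv5, -0.048 to 0.50 for Il17rd and -0.51 to 0.032 for Etv1.

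Between the base and the control vault, where 1 and 573 were called, 0 of the 10 were called after rescaling to the same sum, with both groups only and without the log, 2 at an unadjusted p under 0.05, and 0 to 1 with 1 library left out. All genes called numbered 291 with a mean FPKM of at least 5, 1594 without the trend, 108 with both groups only, 257 without moderation, 179 without the log, 255 at an adjusted p under 0.05 and 2396 at an unadjusted p under 0.05, and 132 to 1322 with 1 library left out. Spred2 turned to -0.0038 with a common median. With 1 library left out, the differences ranged from -0.058 to 0.32 for Spred1, -0.11 to 0.28 for Spred2, -0.033 to 0.55 for Etv1 and -0.31 to 0.23 for Il17rd.

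Libraries with the same replicate number did not deviate together (r over genes from -0.549 to 0.37), so the numbers were not taken to pair the pools. With the replicate number as a block, 19, 918 and 234 genes were called in the 3 comparisons, and 0 of the 10 genes in each, so that Etv4 lost its call in the base.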
